A study of Mus musculus with 43 samples.

Results

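The genes described here encode the proteins of the mouse cytosolic ribosome. Members were the genes whose symbol, in all 5 deposited tables, is Rpl or Rps with a number and an optional ending, or Rplp0, Rplp1, Rplp2 or Rpsa. They numbered 83 of the 38983 genes that the tables share. Of these, 75 formed the core, 31 of them of the small and 44 of the large subunit. The paralogs Rpl10l, Rpl39l, Rpl3l, Rpl22l1 and Rps27l were set apart, as were Rpl7l1 and Rps12l1, whose symbols also end in l1. The symbol Rpl24 stood on the identifier that the annotation gives to another gene, Zbtb11, so that entry was not counted as a core gene, and the Rpl24 gene itself appeared under the symbol RPL24. Rpl13 was not analysed here.

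A ribosome joins a small subunit, which reads the mRNA, to a large subunit, which forms the peptide bonds, and each core gene supplies a protein to one of these particles. Their mRNAs are abundant in growing cells and typically begin with a C followed by a pyrimidine tract, the TOP motif, through which mTOR signalling controls their translation. Myc is known to raise transcription of genes for ribosome production. In mammals these mRNAs have also been copied back into the genome many times, which left processed pseudogenes without introns and with nearly the same letters.

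Poly(A) RNA of 43 libraries was sequenced, and the deposited values are FPKM, which divides fragments by transcript length and by the sequenced total, so levels are per length. The 34 libraries of the reprogramming courses came from 4 systems. In each, doxycycline switches on reprogramming factors in secondary embryonic fibroblasts (MEF), and induced pluripotent stem cells (iPSC), with embryonic stem cells (ES) in 2 systems, were the end points. Mbd3f/- (11 libraries) holds a floxed and a null allele of Mbd3, a NuRD subunit, and had MEF, days 1 to 8, iPSC and ES. Gatad2a-/- (10 libraries) lacks Gatad2a, another NuRD subunit, and had MEF, days 1 to 8 and iPSC. WT-1 (7 libraries) was sampled as MEF, every second day up to day 8, as iPSC and as ES. The second control, WT-2 (6 libraries), is isogenic to Gatad2a-/- and had the same stages except ES. The 9 libraries of Myc perturbation were made in Mbd3f/- cells with inducible OSK (Oct4, Sox2 and Klf4), with cMyc added, with siRNA to cMyc, nMyc and lMyc (siMyc), with a Myc inhibitor that the labels do not name, or with control siRNA (si-Scramble). Each stage of a system is 1 library, and a system is 1 line. In the main fits, p-values rest on differences in course between the 2 systems of a class, after their mean difference is removed. These differences are pooled over all stages of a fit. In the daily comparisons, successive days of the same line act as replicates although they are not independent lines. All systems share doxycycline. The day libraries of all 4 systems are recorded with 5% oxygen and a medium change on day 3.5. Neither is recorded for MEF, iPSC and ES. Cells from day 3 on, iPSC and ES grew on irradiated human fibroblasts while MEF did not. Stage, medium, oxygen and feeder layer therefore cannot be told apart.

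The labels were checked first. All 8 fibroblast markers were at 1 FPKM or more in every MEF library, and all 8 pluripotency markers in every iPSC and ES library. In iPSC, 6 or 7 fibroblast markers also reached 1 FPKM, so that limit alone does not separate the stages. Their sum was 4243 to 8221 FPKM in the MEF of the courses and 87.19 to 350.5 FPKM in iPSC. Mbd3 ranged from 36.3 to 96.5 FPKM in the Mbd3f/- libraries and from 75.3 to 117 FPKM in the WT-1 libraries. Gatad2a ranged from 8.59 to 14.7 FPKM in the Gatad2a-/- libraries and from 9.17 to 38.5 FPKM in the WT-2 libraries. These ranges over all stages overlap, with medians of 10.4 and 10.8 FPKM, although the highest WT-2 value lies above all Gatad2a-/- values. Values of matched stages are not given here. Macrophage markers, 6 genes summed, stood at 22.24 to 39.07 FPKM in iPSC, against 1148 FPKM in Mbd3f/- MEF, 220.5 in Gatad2a-/- MEF, 9.257 in WT-1 MEF and 4410 FPKM in WT-2 MEF. The depth of the libraries is unknown, because FPKM keep no read counts.

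The tables differ in how they divide values between a gene and its near-identical copies, and the letters show the difficulty. Rps12, a small-subunit protein gene with 18 near-identical annotated copies beside Rps12l1, is shown across an exon junction, with 30 bases on each side, beside its processed copies Rps12-ps3 and Rps12l1, which have 1 exon. The capitals mark the 5 bases on each side of the Rps12 junction. Coordinates are GRCm38 and letters are from the GENCODE M21 transcripts. Rps12 lies on the minus strand of chromosome 10 (chr10:23785902-23785931 joined to chr10:23785648-23785677), Rps12-ps3 on the plus strand (chr19:59322575-59322634) and Rps12l1 on the plus strand (chr7:56014220-56014279).
Rps12: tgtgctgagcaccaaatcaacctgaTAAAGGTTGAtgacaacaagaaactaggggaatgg
Rps12-ps3: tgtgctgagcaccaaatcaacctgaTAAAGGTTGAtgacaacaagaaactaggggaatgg
Rps12l1: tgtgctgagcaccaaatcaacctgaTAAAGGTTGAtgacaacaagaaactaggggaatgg
The 3 stretches are the same letter for letter, and both copies hold the whole coding sequence of Rps12. A read from inside 1 exon of this sequence matches all 3 places. A read over the junction matches both copies unsplit, and matches Rps12 equally well only for an aligner that splits the read.

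The tables placed these reads differently. The Rps12 gene entry stood at 2404 FPKM in Gatad2a-/- MEF, against 3.667 FPKM in Mbd3f/- MEF, 5.822 in WT-1 MEF and 9.98 in WT-2 MEF. Its copy Rps12-ps3 stood at 617.1 FPKM in Gatad2a-/- MEF, 1292 in Mbd3f/- MEF, 1780 in WT-1 MEF and 694.4 in WT-2 MEF, and Rps12l1 at 632.4, 1113, 1972 and 456.4 FPKM in the same order of systems. In the Mbd3f/-, WT-1 and WT-2 tables nearly all of the Rps12 signal was therefore listed under genes that are not Rps12.

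Across the core, 67 of 75 genes had at least 1 copy of 95% identity or more over at least 80% of the coding sequence. There were 385 such copies, with a median of 4 per gene and at most 37, for Rpl21. The 8 exceptions without a copy included Rpl23, Rpl4, Rpl8, Rps20, Rps21, Rps3 and Rps9. The gene's own entry held, at the median over the core, 65.6% to 67.5% of the sum of gene and copies in the Gatad2a-/- libraries. It held 6.36% to 8.52% in Mbd3f/-, 7.1% to 8.18% in WT-1, 12.9% to 13.6% in WT-2 and 17.8% to 22.0% in the Myc libraries. These ranges do not overlap between the Gatad2a-/- table and the others. Between Gatad2a-/- MEF and WT-2 MEF, the isogenic pair, the gene entry of the 67 genes with copies had a median ratio of 4.74, with 66 above 1, and the sum with copies a median ratio of 0.992, with 33 above 1. The 8 genes without copies had ratios from 0.538 (Rpl8) to 23.8 (Rps20), so the tables differ in more than the division among copies. For this reason the changes below are differences within a table, and levels or profiles of different tables that stand side by side describe the tables as deposited.

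**Figure D1:**
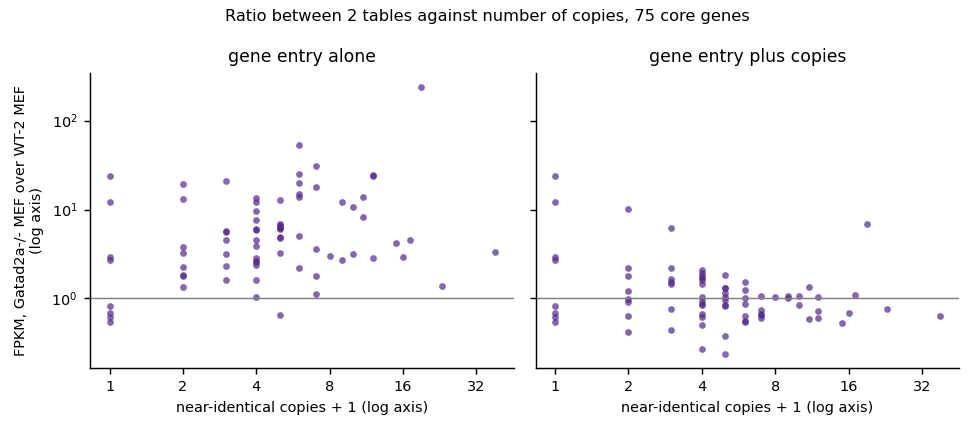
Ratio of FPKM in Gatad2a-/- MEF to WT-2 MEF (vertical log axis) against the number of near-identical copies plus 1 (horizontal log axis), for the gene entry alone (left) and for gene and copies summed (right), 1 point per core gene. With the gene entry alone, 66 of 67 genes with copies lie above 1, and with copies summed 33 of 67 do; the highest point on the left is Rps12.

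Within the division of each table, core genes spanned a wide range of levels, and none was listed at 0 in any library. By the median over the 34 course libraries, Rpl41 (2880 FPKM), Rplp1 (1901), Rpl4 (1635) and Rpl13a (1613) were highest. Rpl41 encodes the smallest protein of the large subunit, Rplp1 a protein of the acidic stalk that recruits elongation factors, and Rpl4 and Rpl13a are large-subunit proteins. Rps12 (9.326 FPKM), Rps29 (27.64), Rpl37 (28.78) and Rps27 (35.92) were lowest, and all 4 have annotated copies. These ranks pool tables that divide gene and copies differently, so Rps12, lowest in the pool, stood at 2404 FPKM in Gatad2a-/- MEF, and Rpl4 has no copies to divide with. The core median lay between 107.1 and 211 FPKM over the Mbd3f/- libraries, between 604.6 and 944 over Gatad2a-/-, between 136.8 and 276.5 over WT-1 and between 116.5 and 381 over WT-2, on scales that are each table's own.

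**Figure D2:**
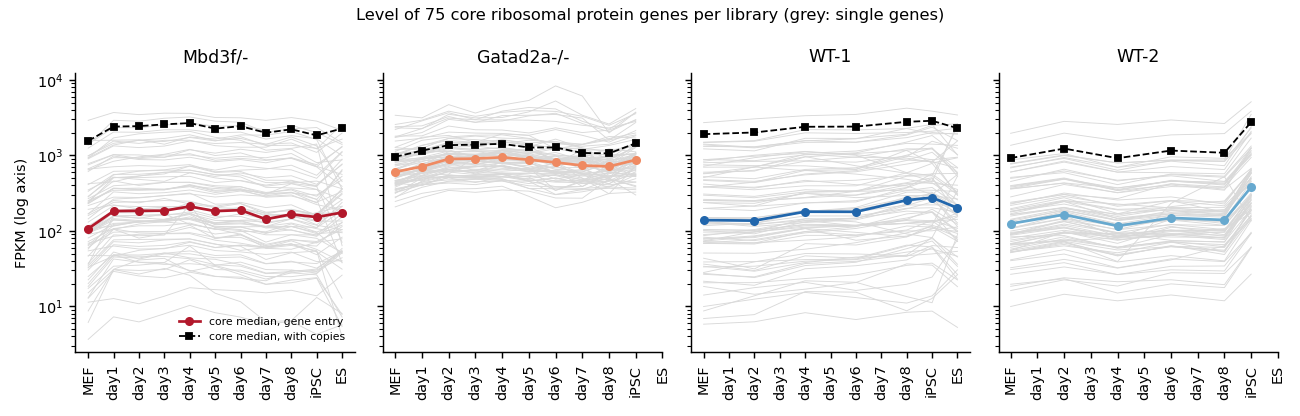
FPKM (log axis) of the 75 core genes by stage in each system, with single genes in grey, the core median of the gene entries as a coloured line and the core median with copies summed as a dashed black line. The distance between the lines is small in Gatad2a-/- and large in the other systems, and WT-2 stays between 116.5 and 164.4 FPKM at the core median until iPSC, where it reaches 381 FPKM.

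The 2 ES libraries stood apart from the rest of their own tables. Over the 75 core genes, on log2(FPKM + 1), the Mbd3f/- libraries other than ES correlated with each other at 0.979 to 0.999 and the WT-1 libraries other than ES at 0.963 to 0.997. The Mbd3f/- ES library correlated with Mbd3f/- iPSC at 0.845 and with WT-1 iPSC at 0.932, and with copies summed at 0.675 and 0.977. The WT-1 ES library correlated with WT-1 iPSC at 0.885 and with Mbd3f/- iPSC at 0.968, and with copies summed at 0.734 and 0.978. In both cases the core profile of the ES library was nearer to the iPSC of the other system, while Mbd3 was lower in Mbd3f/- ES, at 36.3 FPKM, than in WT-1 ES, at 99.3 FPKM. These correlations run across genes of single libraries and describe those libraries. Whether the ES libraries were prepared differently or exchanged cannot be told from the labels and was not tested.

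Rplp1, Rpl36 and Rpl13a, all of the large subunit, show it in single genes. Rplp1 stood at 63.7 FPKM in Mbd3f/- ES and 1415 FPKM in Mbd3f/- iPSC, and at 2634 FPKM in WT-1 ES and 449.1 FPKM in WT-1 iPSC. Rpl36 stood at 3.961 FPKM in Mbd3f/- ES and 54.7 in Mbd3f/- iPSC, and at 89.72 FPKM in WT-1 ES and 11.2 in WT-1 iPSC. Rpl13a stood at 359.2 FPKM in Mbd3f/- ES and 1618 in Mbd3f/- iPSC, and at 2405 FPKM in WT-1 ES and 541.7 in WT-1 iPSC. Each of these was lower in ES than in iPSC in Mbd3f/- and higher in ES than in iPSC in WT-1. Across the core, the log2 differences of ES from iPSC in Mbd3f/- and in WT-1, which share no library, correlated at -0.92, with opposite signs in 66 of 75 genes. Base composition moved with them: the G+C content of the coding sequence ran from 44.9% to 61.6% over the core, and its correlation with the ES minus iPSC difference was -0.67 in Mbd3f/- and 0.65 in WT-1 (-0.79 and 0.71 with copies summed). For the iPSC minus MEF difference the same correlation was 0.28 in Mbd3f/-, 0.18 in Gatad2a-/-, -0.44 in WT-1 and 0.31 in WT-2 (0.49, 0.17, -0.49 and 0.26 with copies summed), so its sign differed between systems there as well. The part of base composition in these differences was not tested.

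ES were compared with iPSC in the fit that takes the iPSC mean over all 4 systems. No core gene passed the test (limma, 12 at an unadjusted p under 0.05; 0.0% of all genes called in either direction), and the core median was -0.353, against -0.01 over all genes. With 1 system left out this median ran from -0.774 to 0.309, positive without WT-1, where 4 core genes were called lower, so it has no stable direction. Within systems, the median log2 difference of ES from iPSC was 0.425 in Mbd3f/-, with 48 of 75 genes higher, and -0.376 in WT-1, with 53 lower. For the 8 genes without copies it was -0.058 in Mbd3f/- and -0.023 in WT-1. The tests that follow do not use the ES libraries.

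From MEF to the end point of the courses, core genes were higher in iPSC. In the fit over 24 libraries, 63 of 75 core genes rose and none fell in iPSC relative to MEF (limma on log2(FPKM + 1), Benjamini-Hochberg adjusted p under 0.05; 68 at an unadjusted p under 0.05). Over all genes, 29.0% were called higher. The median core change was 0.798 on the log2 scale, against 0.139 over all genes, and all 75 estimates were positive. Both subunits took part, with 26 of 31 small-subunit genes and 37 of 44 large-subunit genes called, and all 8 genes without copies were called, with a median of 0.763. In bulk RNA, fewer cells of a type and less RNA per cell cannot be told apart. The count was 0 when FPKM were rescaled to the same sum in each library (limma, 0 at an unadjusted p under 0.05), where the core median was 0.369, that of all genes -0.09, and 2631 genes were called higher and 4890 lower, against 5895 and 4859 without rescaling. It was 1 with no block of systems, 35 after quantile normalization, 67 with copies summed, 31 without Mbd3f/-, 27 without Gatad2a-/- and 33 without WT-2.

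Rpl8, which has no near-identical copy and whose product lies near the peptide-forming centre of the large subunit, can be read without that difficulty. In iPSC it stood at 2341 FPKM in Mbd3f/-, 741 in Gatad2a-/-, 2498 in WT-1 and 3503 in WT-2, against 1373, 420.8, 1221 and 781.8 FPKM in the MEF of the same systems. Each iPSC library was above the MEF library of its own system, and the change was 1.19 ± 0.23 (log2, SE; adjusted p 0.000585). Rpl12, a large-subunit stalk-base protein gene, stood in iPSC at 72.49, 1628, 118.9 and 142.9 FPKM in that order of systems, against 37.13, 994.7, 43.46 and 32.54 FPKM in MEF. Its change of 1.30 ± 0.29 was the highest of the core (adjusted p 0.00184). Rpl36a (1.23 ± 0.23, adjusted p 0.000462), Rpl27 (1.15 ± 0.23, adjusted p 0.00086), Rps13 (1.14 ± 0.22, adjusted p 0.000674) and Rps29 (1.14 ± 0.29, adjusted p 0.00498) followed. Rpl36a and Rpl27 belong to the large and Rps13 and Rps29 to the small subunit. With copies summed, the changes were 0.97 for Rpl12, 0.85 for Rpl27 and 0.77 for Rps29, and each passed the test.

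At the other end, the lowest estimates did not pass the test. Rpl10, an X-linked gene for a large-subunit protein that joins late in assembly, stood in iPSC at 84.63 FPKM in Mbd3f/-, 1086 in Gatad2a-/-, 176.2 in WT-1 and 193.7 in WT-2, against 94.29, 1271, 123.6 and 99.58 FPKM in MEF. It was lower in iPSC in both depleted systems and higher in both WT systems, with an estimate of 0.27 ± 0.19 (adjusted p 0.248). Rps15a (0.35 ± 0.20, adjusted p 0.158), Rpl29 (0.39 ± 0.29, adjusted p 0.284), Rps19 (0.41 ± 0.20, adjusted p 0.11), Rpl13a (0.45 ± 0.32, adjusted p 0.247) and Rpl17 (0.46 ± 0.20, adjusted p 0.0676) came next. Rpl29, with 22 copies, had iPSC below MEF in Mbd3f/- alone, at 26.2 FPKM in iPSC and 47.45 in MEF.

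The size of this change was read in each system. The median core difference of iPSC from MEF was 0.317 in Mbd3f/- (63 of 75 genes higher), 0.582 in Gatad2a-/- (71 higher), 0.78 in WT-1 (71 higher) and 1.646 in WT-2 (75 higher). The macrophage marker sum was highest in WT-2 MEF, at 4410 FPKM, and lowest in WT-1 MEF, at 9.257 FPKM, and the part of these cells in the change was not tested. The difference in this change between systems or classes was not tested.

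**Figure D3:**
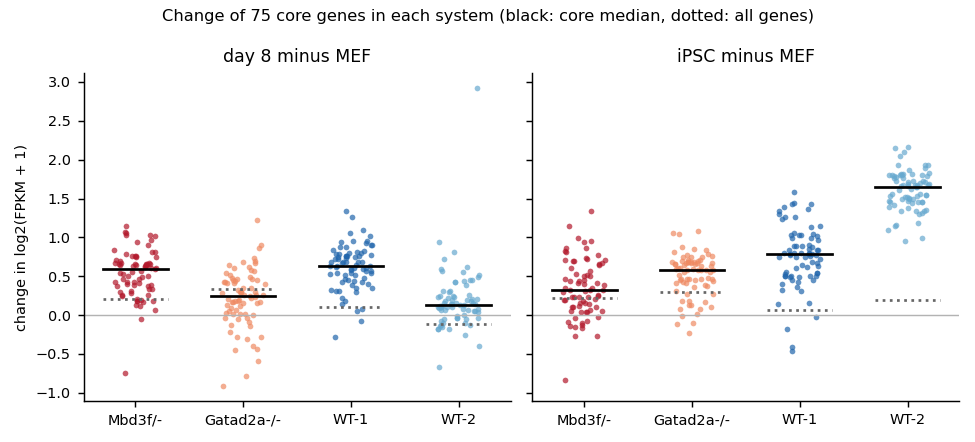
Log2 difference of day 8 (left) and iPSC (right) from MEF for each of the 75 core genes in each system, 1 point per gene, with the core median as a black line and the median of all genes as a dotted line. The iPSC medians run from 0.317 in Mbd3f/- to 1.646 in WT-2, and the highest point on the left is Rps27 in WT-2, at 2.92.

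The time courses place the medians day by day. In Mbd3f/-, the median core difference from MEF was 0.679, 0.686, 0.695, 0.862, 0.6, 0.655, 0.402 and 0.595 for days 1 to 8 in turn and 0.317 in iPSC. In Gatad2a-/- it was 0.254, 0.542, 0.458, 0.572, 0.499, 0.372, 0.286 and 0.250 on days 1 to 8 and 0.582 in iPSC. Both depleted systems thus stood above MEF from day 1 and had their highest day on day 4. The WT-1 medians were -0.011, 0.316, 0.346 and 0.638 for days 2, 4, 6 and 8, with 0.78 in iPSC, and the WT-2 medians were 0.404, -0.013, 0.254 and 0.131 for these days, with 1.646 in iPSC. The WT-1 median was higher at each later stage, whereas that of WT-2 was highest in iPSC and had no such order before.

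Days 1 to 3 were tested against MEF in the 20 libraries of the depleted systems, where the days of a line enter as separate libraries. There 55 of 75 core genes rose and none fell (limma, adjusted p under 0.05), while 19.6% of all genes were called higher and 14.2% lower; the core median was 0.581 and that of all genes 0.128. The count was 0 after rescaling to the same sum (limma, 3 at an unadjusted p under 0.05), with a core median of 0.536, and 0 with no block of systems. Cell markers moved in the same comparison: 7 of 8 fibroblast and 5 of 6 macrophage markers were called lower, and the macrophage sum was 570.7, 118.4 and 48.5 FPKM on days 1 to 3 of Mbd3f/-, against 1148 FPKM in its MEF, and 288.5, 250.5 and 28.23 FPKM on these days of Gatad2a-/-, against 220.5 FPKM in its MEF. Their part in the core change was not tested. The list of ribosome biogenesis factors, which make and modify ribosomal RNA, had 20 of 20 genes higher in this comparison, with a median of 2.2. Rpl8 stood at 2921, 2836 and 3108 FPKM on days 1, 2 and 3 of Mbd3f/-, against 1373 FPKM in its MEF, and at 616, 730.2 and 706 FPKM on the same days of Gatad2a-/-, against 420.8 FPKM in its MEF. All 6 day libraries were above the MEF of their system, and the change was 0.90 ± 0.13 (adjusted p 0.000198). Rpl27 changed by 1.34 ± 0.28 (adjusted p 0.0028) and Rps29 by 1.28 ± 0.28 (adjusted p 0.0036), and with copies summed by 0.79 ± 0.15 (adjusted p 0.00156) and 0.53 ± 0.15 (adjusted p 0.0164).

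Days 5 to 8 were then set against days 1 to 3 in the same fit. No core gene rose and 11 fell, while 18.8% of all genes were called lower and 35.1% in either direction; the core median was -0.148 and that of all genes 0.008. Of the 44 large-subunit genes 9 were called lower, and of the 31 small-subunit genes 2. A difference between the subunits was not tested. Among the 8 genes without copies the median was 0.01, with 5 estimates above 0 and 1 gene, Rpl8, called lower. With no block of systems none of the 75 was called. Rpl8 fell by 0.23 ± 0.08 on the log2 scale (adjusted p 0.0475) and Rpl27 by 0.63 ± 0.19 (adjusted p 0.019). Rpl27 stood at 106.8, 90.44, 58.75 and 57.15 FPKM on days 5 to 8 of Mbd3f/-, below each of its values of 158.2, 146.8 and 168 FPKM on days 1 to 3. With copies summed, Rpl27 stood at 2606, 2650, 2118 and 2228 FPKM on days 5 to 8 of Mbd3f/-, against 3035, 2725 and 2929 FPKM on days 1 to 3, and the difference did not pass (-0.22 ± 0.10, adjusted p 0.109). The share of the family listed under the Rpl27 entry was 2.57% to 4.1% on days 5 to 8 and 5.21% to 5.74% on days 1 to 3. The core median was -0.19 in Mbd3f/- and -0.117 in Gatad2a-/-. Rescaling to the same sum moved the core median to -0.82 and that of all genes to -0.408.

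On day 2, tested in the fit over all 4 systems, 5 core genes rose relative to MEF in the depleted systems and none fell (31 at an unadjusted p under 0.05), while 9.97% of all genes were called higher and 8.19% lower. They were Rps29 (1.35 ± 0.42, adjusted p 0.0393), Rpl27 (1.30 ± 0.32, adjusted p 0.0159), Rpl7a (0.99 ± 0.26, adjusted p 0.0186), Rpl30 (0.90 ± 0.28, adjusted p 0.0431) and Rpl37a (0.68 ± 0.22, adjusted p 0.0443). Rpl7a, Rpl30 and Rpl37a, all of the large subunit, are named because they passed, after their values were seen. With copies summed 1 of the 5 still passed, Rpl7a (1.01 ± 0.24, adjusted p 0.0135), and Rps29 had an estimate of 0.55 ± 0.28 (adjusted p 0.195). In Mbd3f/-, the Rps29 entry held 0.996% of its family on day 2 and 0.297% in MEF. After rescaling to the same sum, or with no block of systems, the count was 0. In WT, no core gene passed on day 2 (limma, 0 at an unadjusted p under 0.05; 0.0% of all genes). The core median was 0.634 in the depleted systems and 0.201 in WT; the difference between them on day 2 was not tested. The day 2 count in the depleted systems was 0 without Mbd3f/-, 11 without WT-1 and 13 without WT-2.

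On day 8 the core stood above MEF in all 4 systems, by medians of 0.595 in Mbd3f/-, 0.25 in Gatad2a-/-, 0.638 in WT-1 and 0.131 in WT-2, where the medians of all genes were 0.205, 0.341, 0.108 and -0.115. In the depleted systems 1 core gene rose relative to MEF (limma; 7 at an unadjusted p under 0.05), while 19.0% of all genes were called higher. The core median was 0.405 there and 0.386 in WT, where no core gene passed (limma, 9 at an unadjusted p under 0.05; 0.438% of all genes called higher and 1.16% in either direction). Without Mbd3f/- or without Gatad2a-/- the count in the depleted systems was 0, and without WT-1 or without WT-2 it was 6. The depleted median turned to -0.283 after rescaling to the same sum, where all genes had a median of -0.218. Of summed FPKM in the Gatad2a-/- libraries, the 10 highest genes other than the members held 48.8% to 90.6%, against 4.96% to 7.12% in Mbd3f/-. Their part in the rescaled medians was not tested.

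The difference between depleted and WT systems in their day 8 change was tested directly. No core gene passed (limma, 0 at an unadjusted p under 0.05), while 8.4% of all genes were called higher and 7.73% lower; the core median was -0.013 and that of all genes 0.235. Among the highest core estimates were those of Rpl36 (0.59 ± 0.66), Rpl3 (0.53 ± 0.46), Rplp2 (0.51 ± 0.48), Rps3 (0.50 ± 0.44) and Rps18 (0.47 ± 0.41). The lowest were those of Rps27 (-1.24 ± 0.72), Rps20 (-0.75 ± 0.52), Rpl10 (-0.70 ± 0.38), Rpl21 (-0.70 ± 0.46), Rpl29 (-0.65 ± 0.59) and Rps19 (-0.54 ± 0.41). Their adjusted p ran from 0.233 for Rpl10 upward. With these standard errors the comparison leaves room for differences of the size of the core changes themselves. Rps27, a zinc-finger protein of the small subunit, had its largest day 8 change in WT-2, of 2.92, where it stood at 68.14 FPKM in MEF, at 72.67, 39.33, 231.4 and 522.5 FPKM for days 2, 4, 6 and 8, and at 136 FPKM in iPSC.

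The last step of the WT courses, from day 8 to iPSC, came next. Here 30 of 75 core genes rose and none fell (50 at an unadjusted p under 0.05), while 19.6% of all genes were called higher and 35.3% in either direction; the core median was 0.8 and that of all genes 0. The count was 0 after rescaling to the same sum, with no block of systems, and with only the compared stages in the fit. Rps18 (1.23 ± 0.29, adjusted p 0.00532) and Rpl8 (1.20 ± 0.32, adjusted p 0.0107) were among them. The result rested on WT-2: the median was 1.469 in WT-2, with 74 of 75 genes higher, and 0.097 in WT-1, with 51 higher, and without WT-2 no core gene passed. Without WT-1, Mbd3f/- or Gatad2a-/- the count was 66, 5 or 15 in turn. The macrophage marker sum in WT-2 was 39.07 FPKM in iPSC and 4070 to 8294 FPKM on its days, and its part in this step was not tested. In the depleted systems the same step had a median of -0.247 in Mbd3f/-, with 62 of 75 genes lower in iPSC, and of 0.285 in Gatad2a-/-, with 59 higher.

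Of the 5 paralogs, Rpl10l, Rpl39l and Rpl3l changed by more than the core median in iPSC, and Rpl22l1 and Rps27l by about as much as it. Rpl10l is known in mice as a testis gene without introns that serves in place of X-linked Rpl10 during male meiosis, Rpl39l is known from the male germ line, Rpl3l from heart and skeletal muscle, Rps27l as a p53 target, and Rpl22l1 as a partner gene whose level Rpl22 can hold down. Coding sequences of paralog and parent had identities of 84.7% for Rpl10l and Rpl10, 85.0% for Rpl39l and Rpl39, 76.2% for Rps27l and Rps27, 73.2% for Rpl3l and Rpl3 and 66.9% for Rpl22l1 and Rpl22. The first 60 coding bases of the pairs with the closest match are printed with the differing bases in capitals, because the results below turn on separating them. Letters are from GENCODE M21 transcripts on GRCm38: Rpl10l on the minus strand (chr12:66284298-66284357), Rpl10 on the plus strand (chrX:74271002-74271024 joined to chrX:74271660-74271696), Rpl39l on the plus strand (chr16:10174310-10174369) and Rpl39 on the minus strand (chrX:37085125-37085127 joined to chrX:37084032-37084088).
Rpl10l: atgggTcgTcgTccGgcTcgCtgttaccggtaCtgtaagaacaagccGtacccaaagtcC
Rpl10: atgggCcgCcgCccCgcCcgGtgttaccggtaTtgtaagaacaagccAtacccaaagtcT
Rpl39l: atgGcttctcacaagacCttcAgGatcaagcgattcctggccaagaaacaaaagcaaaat
Rpl39: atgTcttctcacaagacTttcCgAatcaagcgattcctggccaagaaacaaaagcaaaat
Rpl10l and Rpl10 differ at 9 of these bases, and Rpl39l and Rpl39 at 4.

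All 5 paralogs were called higher in iPSC relative to MEF (limma), where 29.0% of all genes were called higher. Within Gatad2a-/- alone, the Rps27l difference was -0.056. Rpl10l in Mbd3f/- stood at 0.07752 FPKM in MEF, at no more than 0.1781 FPKM through day 4, at 3.015, 20.03, 58.28 and 110.8 FPKM for days 5 to 8, at 208.4 FPKM in iPSC and at 106.9 FPKM in ES. In Gatad2a-/- it was listed at 0 in MEF and on days 1 and 2, and stood at 1.102, 0.4821, 0.7101, 5.439, 6.483 and 37.97 FPKM on days 3 to 8 and at 10.61 FPKM in iPSC. In WT-1 it stood at no more than 0.05948 FPKM through day 8, at 27.16 FPKM in iPSC and at 115 FPKM in ES, and in WT-2 it was listed at 0 through day 8 and stood at 23.75 FPKM in iPSC. The day 8 libraries of both depleted systems thus stood above every WT library from before iPSC. The 8 pluripotency markers summed to 3589 FPKM on day 8 of Mbd3f/-, 2418 of Gatad2a-/-, 150.8 of WT-1 and 1.973 of WT-2. In the depleted minus WT difference in day 8 change, all 8 were called higher, with a median of 5.699. There 7 of 8 fibroblast markers were called lower. The part of cell state in the paralog differences was not tested. The iPSC change was 5.15 ± 0.53 (adjusted p 4.58e-06), the depleted day 8 change 5.99 ± 0.75 (adjusted p 7.33e-05), and the depleted minus WT difference in day 8 change 5.97 ± 1.07 (adjusted p 0.00272). That difference no longer passed after rescaling to the same sum (5.19, adjusted p 0.178), without WT-1 (5.99, adjusted p 0.0631) or without WT-2 (5.95, adjusted p 0.0956), where the size of the difference was little altered. The Rpl10l difference did pass after rescaling to the same sum of protein-coding FPKM (limma, 7.11, adjusted p 0.00211). The parent Rpl10 did not pass in the iPSC, depleted day 8 or depleted minus WT comparison.

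Rpl39l stood in Mbd3f/- at 7.175 FPKM in MEF, 13.48, 11.7, 8.001, 5.848, 14.15, 20.3, 50.88 and 105.9 FPKM on days 1 to 8, 166.9 in iPSC and 311.9 FPKM in ES. In WT-1 it stayed between 0.1339 and 0.4902 FPKM through day 8 and stood at 123.4 FPKM in iPSC and 133.5 in ES. Gatad2a-/- had 20.65 FPKM in iPSC and 3.926 in MEF, and WT-2 had 24.12 FPKM in iPSC and 4.025 in MEF. Every iPSC library was above every earlier library of its system except in Gatad2a-/-, where day 8 had 22.02 FPKM. The iPSC change was 3.87 ± 0.70 (adjusted p 0.000435) and the depleted day 8 change 2.97 ± 0.99 (adjusted p 0.0341), while the depleted minus WT difference did not pass (2.60 ± 1.40, adjusted p 0.234). Rpl39 itself changed by 0.50 ± 0.19 (adjusted p 0.0349) in iPSC.

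Rpl3l stayed low throughout, at 0.7946 to 2.608 FPKM in iPSC and at most 0.05003 FPKM in MEF, being listed at 0 in the MEF of both WT systems. Its iPSC change was 1.48 ± 0.18 (adjusted p 1.59e-05), and the depleted minus WT difference in day 8 change was 1.29 ± 0.36 (adjusted p 0.0274), which did not pass after rescaling (1.00, adjusted p 0.341), after quantile normalization (0.80, adjusted p 0.142), with no block (1.29, adjusted p 0.176), with only the compared stages (1.29, adjusted p 0.0735), without WT-1 (1.31, adjusted p 0.183) or without WT-2 (1.27, adjusted p 0.269). The Rpl3l difference did pass after rescaling to the same sum of protein-coding FPKM (limma, 2.07, adjusted p 0.0084). Rps27l changed by 0.90 ± 0.22 in iPSC (adjusted p 0.00397) and by 1.11 ± 0.26 on days 1 to 3 of the depleted systems (adjusted p 0.00544), and then fell by 0.66 ± 0.17 on days 5 to 8 (adjusted p 0.00914), when Rpl10l (3.61 ± 0.54, adjusted p 0.000317), Rpl39l (1.23 ± 0.41, adjusted p 0.0357) and Rpl3l (0.65 ± 0.23, adjusted p 0.044) rose. Rpl22l1 changed by 0.78 ± 0.28 in iPSC (adjusted p 0.0332) and its parent Rpl22 by 0.89 ± 0.17 (adjusted p 0.000717). Rpl7l1, which shares its name with a large-subunit gene, changed by 1.63 ± 0.28 in iPSC (adjusted p 0.000247), and Rps12l1, whose letters are those of Rps12, by 0.44 ± 0.24 (adjusted p 0.14).

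**Figure D4:**
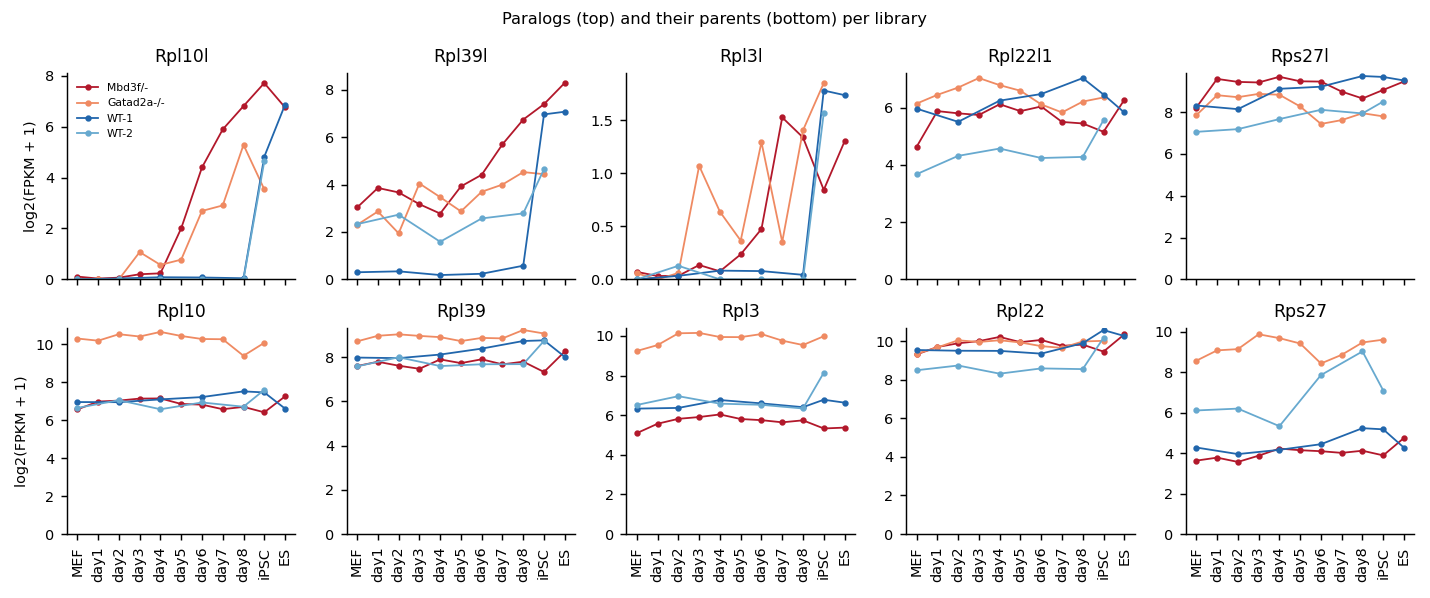
Log2(FPKM + 1) of the 5 paralogs (top) and of their parents (bottom) by stage, with 1 line per system and 1 point per library. Rpl10l and Rpl39l climb from day 5 on in Mbd3f/- to 208.4 and 166.9 FPKM in iPSC, while in both WT systems Rpl10l stays at or near 0 until iPSC.

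Other genes of ribosome production and translation were read in the same comparison of iPSC with MEF, in which 29.0% of all genes were called higher. All 20 ribosome biogenesis factors rose, with a median of 2.006, from Ubtf, an rDNA transcription factor (1.49 ± 0.27, adjusted p 0.000379), to Nhp2, a protein of the RNA-modifying H/ACA particles (3.03 ± 0.38, adjusted p 2.36e-05). Of the 76 mitochondrial ribosomal protein genes 61 rose and none fell, with a median of 1.122. Of 17 other genes with TOP mRNAs 10 rose and none fell, with a median of 0.763, among them Npm1, a nucleolar chaperone (2.24 ± 0.31, adjusted p 4.19e-05), while the elongation factor genes Eef2 (-0.20 ± 0.30, adjusted p 0.608) and Eef1a1 (-0.01 ± 0.21, adjusted p 0.982) did not pass. Fau, whose ribosomal protein is made as a fusion with a ubiquitin-like protein and is not matched by the symbol rule, changed by 0.66 ± 0.19 (adjusted p 0.0104). RPL24 changed by 0.62 ± 0.15 (adjusted p 0.00356). After rescaling to the same sum, the counts were 20 of the biogenesis, 27 of the mitochondrial and 3 of the TOP genes, and with no block of systems 16, 42 and 0. In the day 8 difference between depleted and WT systems, where 8.4% of all genes were called higher and 7.73% lower, 2 of 20 biogenesis genes were higher, among them Ubtf (1.73 ± 0.53, adjusted p 0.0432). Of the 76 mitochondrial genes 2 were higher and 1 lower, with a median of 0.132, the lower one being Mrps21 (-1.16 ± 0.27, adjusted p 0.0122).

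Start sites of members were read for the pyrimidine tract that marks TOP mRNAs. Windows of 30 bases, 12 of them before the start site that RefSeq annotates on GRCm38.p6, are shown for genes named above. Capitals mark a run of at least 6 C or T that begins with C within 20 bases of the start. The windows are Rpl13a (chr7:45128728-45128757, minus strand), Rps18 (chr17:33955648-33955677, minus), Rps27 (chr3:90213631-90213660, minus), Rps27l (chr9:66946074-66946103, plus), Rpl39l (chr16:10170216-10170245, plus) and Rpl10l (chr12:66284384-66284413, minus).
Rpl13a: accctgcgacaagaCCTCCTCCTTTCCCag
Rps18: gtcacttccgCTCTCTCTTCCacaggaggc
Rps27: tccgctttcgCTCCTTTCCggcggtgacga
Rps27l: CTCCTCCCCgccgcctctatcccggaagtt
Rpl39l: ccaggCCTTTCCggatttccggtggtcgcc
Rpl10l: ggcctccattttgcggctggcggtgggcac
Rpl10l has no such run in its window and the others do. Of the 75 core genes 55 had a start sequence, and 37 of them (67.3%) held a run, against 8859 of 27025 genes (32.8%) with a start sequence, 26 of 69 mitochondrial ribosomal protein genes (37.7%) and 3 of 17 biogenesis factors (17.6%). A run of this kind is a match of letters near an annotated start and does not show where transcription begins.

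Core genes did not all follow their common course equally. After each system's mean was taken out, the correlation of a gene with the core mean over the 34 course libraries was lowest for Rps27 (0.28), Rpl13a (0.381), Rplp1 (0.404) and Rpl36 (0.521). Of these, Rpl13a, Rplp1 and Rpl36 are the genes described above as mirrored between the ES libraries. The 34 libraries include those ES libraries, so the low values of these genes are not separate from that pattern. Outside the family, the genes most like the core mean among 13653 candidates were Banf1 (0.923), Snrpd2 (0.923), Tmem11 (0.921), Naca (0.916), Hmga1 (0.908), Ahcy (0.902), Gnb2l1 (0.899), Nob1 (0.894), Adat2 (0.892) and Snrpf (0.891). The points share libraries and the stage of each library, so the values describe likeness over these 34 libraries. The core's share of all FPKM, another summary of the family, was 4.88% in iPSC and 4.25% in MEF of Mbd3f/-, 2.65% and 2.98% in Gatad2a-/-, 5.38% and 4.41% in WT-1 and 5.9% and 2.91% in WT-2, in each pair iPSC before MEF. In Gatad2a-/- the 10 highest genes other than the members held 73.1% of all FPKM in iPSC and 62.6% in MEF. Without them its share was 9.85% in iPSC and 7.97% in MEF, and of protein-coding FPKM it was 16.9% and 13.1%. On both of these measures iPSC stood above MEF in the other systems too.

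The Myc libraries asked how the family stands when Myc is added, silenced or inhibited, with 1 library a group except for the 2 si-Scramble MEF, and no test was made. Between those 2 MEF libraries no core gene differed by more than 1.5-fold, and the largest log2 ratio was 0.185 in size. With cMyc added to OSK on day 4, the median core ratio to OSK alone was 0.914, with 11 genes over 1.5-fold higher and 16 over 1.5-fold lower, where 24.3% and 32.3% of all genes passed those limits. The spread was wide. Rpl36 stood at 481.5 FPKM with cMyc and 109.5 FPKM with OSK alone, and Rplp1 at 2496 and 901.3 FPKM in those libraries, whereas Rps20 stood at 647.6 FPKM with cMyc and 1764 FPKM with OSK alone. The log2 differences correlated at 0.55 with the G+C content of the coding sequence over the 75 genes (0.67 with copies summed), and the part of base composition was not tested. With copies summed, 15 genes were over 1.5-fold higher and 5 over 1.5-fold lower. Against cMyc alone, the same OSK plus cMyc library had a median ratio of 0.888 and no core gene past 1.5-fold, where 20.3% of all genes were higher and 15.0% lower by that much.

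Silencing of the Myc genes was read on day 7. The median core ratio of siMyc to si-Scramble was 0.793, with 74 of 75 genes lower and 7 lower by more than 1.5-fold, where 12.5% of all genes were higher and 13.5% lower by that much; the median over all genes was 1.02. Rpl12 stood at 75.35 FPKM with siMyc and 127.9 FPKM with si-Scramble, and Rpl3, a core protein of the large subunit, at 64.51 FPKM with siMyc and 103.3 FPKM with si-Scramble. Fibroblast markers differed between these libraries too, with a sum of 1814 FPKM in siMyc and 5346 FPKM in si-Scramble, and their part in the core shift was not tested. With 1 library a group, these values describe the libraries. The si-Scramble library of day 7 was itself below the si-Scramble MEF, with a median ratio of 0.724, all 75 genes lower and 13 by more than 1.5-fold (18.0% of all genes higher and 16.7% lower). Keratinocyte markers summed to 169.7 FPKM in that day 7 library and to 8.417 and 8.784 FPKM in the MEF libraries, and their part was not tested. There is no si-Scramble library of day 3, so day and treatment cannot be told apart in the day 3 ratios to si-Scramble MEF. On day 3 the median ratio to si-Scramble MEF was 0.914 with siMyc, with no core gene past 1.5-fold (10.7% of all genes higher and 28.4% lower). With the Myc inhibitor it was 0.902, with 3 genes past 1.5-fold each way (22.5% higher and 27.0% lower). From day 3 to day 7 of siMyc, 58 core genes were lower by more than 1.5-fold (35.4% of all genes higher and 13.2% lower), with a median ratio of 0.618. The inhibitor library over siMyc, both of day 3, had a median ratio of 0.98, with 6 core genes higher and 2 lower by more than 1.5-fold (34.7% and 24.3% of all genes).

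**Figure D5:**
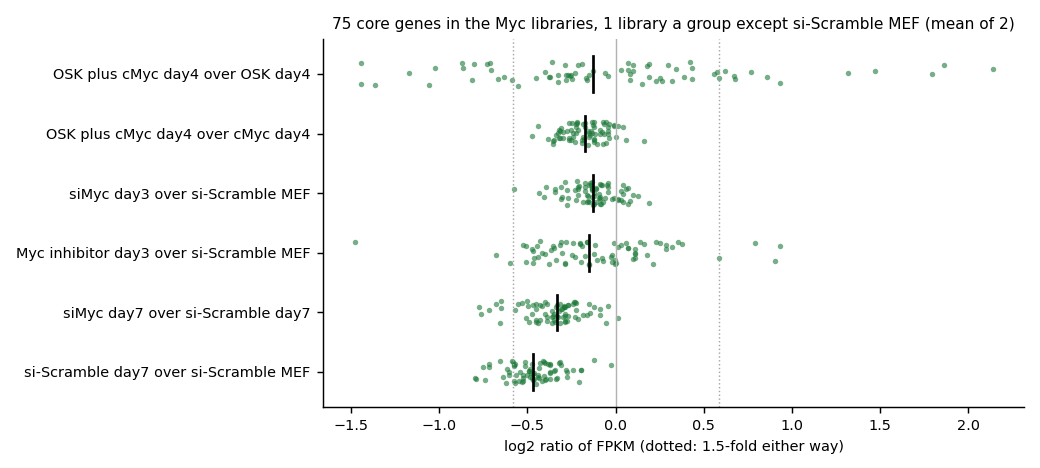
Log2 ratio of FPKM for the 75 core genes in 6 pairs of Myc libraries, 1 point per gene, with the median as a black bar and dotted lines at 1.5-fold either way; si-Scramble MEF is the mean of 2 libraries. The pair with cMyc added to OSK has the widest spread, from genes over 1.5-fold lower to Rpl36 at 4.4-fold, and in the pair of siMyc over si-Scramble on day 7, 74 of 75 genes are lower.

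Among the paralogs in these libraries, Rpl22l1 stood at 12.86 FPKM in siMyc day 7 and 37.58 FPKM in si-Scramble day 7, and at 98.49 FPKM in OSK plus cMyc and 355.4 FPKM in OSK alone. Rpl39l stood at 11.84 FPKM in OSK plus cMyc, 7.035 in cMyc alone and 0.7773 FPKM in OSK alone, and was listed at 0 with the Myc inhibitor on day 3. Rpl10l stayed at or below 0.172 FPKM in all 9 libraries, and Rpl3l at or below 0.1507 FPKM.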

How the data were processed

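Poly(A) RNA-seq of 43 mouse libraries (34 of the courses, 9 of Myc perturbation) was used as deposited: the authors gave gene FPKM in a table for each system and another for the Myc libraries. Build mm10, Cufflinks 2.2.1 and TopHat2 2.0.10 stand in the submitters' processing notes, beside CASAVA 1.8.2. The sources used here do not say how reads that match several places were handled. The kit named in the labels does not mark strand. Whole reads cannot be recovered from these values, so depth is unknown.

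Here FPKM were analysed as log2(FPKM + 1), which understates changes of low genes, for genes at 1 FPKM or more in at least 2 libraries of a fit. limma 3.58.1 (R 4.3.3; moderated with trend and robust options; class-by-stage means, system as block) tested 20305 genes in 24 libraries (10 residual degrees of freedom), 20410 in 26 with ES and 20198 in 20 for the daily courses; p-values were Benjamini-Hochberg adjusted over all genes. The iPSC minus MEF fit was tested on simulated data, with 100 genes changed by 1 and 100 by 2 on the log2 scale. It recovered 42% of the changes of 1 and 92% of those of 2, and called 0.0366% of the unchanged genes. Smaller changes were not simulated. Copies came from BLAST+ 2.17.0 of principal coding sequences against GENCODE M21.

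Named genes, by a rule, were the 6 highest and 6 lowest core members by the iPSC minus MEF change and by the day 8 difference, the 4 highest and 4 lowest by level, the paralogs with their parents, Fau and the 2 extremes of each other list; further names are stated where they occur, and Rplp1, Rpl36 and Rpl13a (ES), Rpl8 and Rpl27 (days) and the genes of the Myc libraries were picked from among these after their values were seen. Some genes that the rule names are not reported here. The members and the lists were chosen with earlier results of these data known. Alternatives were other pseudocounts, filters, scalings, blocks and stages, leaving out each system, and, added after the data were seen, protein-coding scaling and copies summed.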

Additional observations from a re-analysis of the deposited data

Results flagged for a closer look

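Rpl10l differed between depleted and WT systems in its day 8 change by 5.97 (limma adjusted p 0.00272), with both depleted systems above and both WT systems at or near 0. Rpl3l differed by 1.29 (adjusted p 0.0274), with day 8 values of 1.528 FPKM in Mbd3f/- and 1.649 FPKM in Gatad2a-/-, against 0.03004 FPKM in WT-1 and a listed 0 in WT-2. All 8 pluripotency markers were also called higher in this comparison, with a median of 5.699, and 7 of 8 fibroblast markers lower. The part of cell state in the paralog differences was not tested.

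The core median of ES minus iPSC was 0.425 in Mbd3f/- and -0.376 in WT-1. With 1 library of each kind this difference was not tested, and the genes with high coding G+C content moved opposite ways in the 2 systems.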

How the results depend on the processing

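The count of core genes called in iPSC against MEF was 63; it was 0 after rescaling to the same sum or by the FPKM of all other genes, 35 after quantile normalization, 1 with no replicate block of systems, and 27 to 71 when 1 system was left out. For the depleted systems on day 2 the count of 5 became 2 with no filter, 0 under either rescaling, 2 after quantile normalization, 0 with no block, 3 with only the compared stages, 3 without trend and robust options, 2 with protein-coding scaling, 1 with copies summed and 0 to 13 when a system was left out. On day 8 the count of 1 became 0 with no filter, under either rescaling, after quantile normalization and with no block, and 0 to 6 when a system was left out; in WT it was 0 to 1. For WT iPSC against day 8 the count of 30 became 0 under either rescaling, 13 after quantile normalization, 0 with no block, 0 with only the compared stages and 0 to 66 when a system was left out. For days 1 to 3 the count of 55 became 0 under either rescaling, 22 after quantile normalization and 0 with no block, and for days 5 to 8 the count of 11 lower became 0 with no block, 17 with only the compared stages, 6 without trend and robust options and 5 with protein-coding scaling. The median over the 4 systems of the iPSC minus MEF difference in the core's share of FPKM was 0.8 percentage points, and became 3.15 of protein-coding FPKM and 3.65 with copies summed. In the Myc libraries, summing copies moved the count of genes over 1.5-fold lower in OSK plus cMyc than in OSK alone from 16 to 5. For the inhibitor over si-Scramble MEF, the count over 1.5-fold higher moved from 3 to 0 and that lower from 3 to 4. The inhibitor counts over siMyc moved to 1 higher and 1 lower, against 6 and 2. The causes were not tested.

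Core medians for iPSC against MEF exceeded those of all genes by 0.659, and by 0.459 after rescaling to the same sum. Change of sign was checked for single named genes in the iPSC minus MEF and the depleted minus WT day 8 comparisons. None of them changed sign while called. No paired analysis was possible because the labels give no replicate numbers that groups share; the block is the system. With 1 system left out, the lone sample of a class was assumed to vary like the others, the daily courses then had no residual degrees of freedom and were not tested, and the ES comparison could not be fitted on its own stages. The unknown depth limits statements on genes listed at or near 0.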
